A study of Homo sapiens with 8 samples.

Results

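The 10 genes described here encode proteins that bind or move actin filaments in contractile and smooth-muscle-like cells: ACTA2, TAGLN, TAGLN2, MYL9, TPM1, TPM2, CNN1, CNN2, CNN3 and CALD1. They were chosen by symbol, each was named by 1 row of the deposited tables, and together they are 10 of 48405 rows. RNA was measured in HCC4006 and HCC827, established human lung adenocarcinoma lines whose growth depends on a mutated, active EGFR kinase. Each line was present as a passage control grown with DMSO, the drug's solvent, and as a population adapted to growth with 3 µM gefitinib, an EGFR inhibitor, which gave 4 groups of 2 libraries. The title of the series asks about cellular reprogramming in resistance, and the contractile genes are among those that such a change of cell state can involve. Whether the pair of libraries in a group stems from independent cultures is not in the labels, so the p-values measure only the spread between these libraries, which may be technical. Drug exposure and resistance go together in this design and cannot be told apart.

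In muscle and in motile cells, myosin motors pull on actin filaments when the regulatory light chain of myosin is phosphorylated, and tropomyosin, caldesmon, calponin and transgelin sit along the filament and set how it is bundled and how myosin reaches it. ACTA2, TAGLN, CNN1 and MYL9 are widely used as markers of smooth muscle and of myofibroblasts, while TAGLN2, TPM1, CNN2, CNN3 and the short form of caldesmon are made by many non-muscle cells, epithelial cells included. Serum response factor (SRF) drives many of these genes through a short DNA element, the CArG box, when its co-factors MKL1 and MKL2 sense that free actin has run low. Carcinoma cells that shift towards a mesenchymal state often raise part of this set.

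Of the members, 8 had entries in the RefSeq promoter table (build GRCh38.p14), which holds the 250 bases before and 50 after each start, with several starts for some genes. TAGLN and MYL9 had none. A CArG box with only A and T in its middle was searched on both strands. It lay in 1 of the 16 member windows, that of CNN2, and in 1.29% of all 35116 windows. With 1 G or C allowed in the middle, a search added after the first, ACTA2 and CALD1 had boxes too. Boxes then lay in 3 of the 16 member windows, beside 8.13% of all windows. All sites found in member windows by either search are shown, and whether they bear on the levels below was not tested. The box is in capitals, 10 bases of each flank in lower case, 5′ to 3′ along the gene's strand.
ACTA2, chr10:88952875-88952904, minus strand: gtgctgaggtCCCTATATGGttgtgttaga
ACTA2, chr10:88952825-88952854, minus strand: tgtctttgctCCTTGTTTGGgaagcaagtg
CNN2, chr19:1026509-1026538, plus strand: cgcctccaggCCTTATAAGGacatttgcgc
CALD1, chr7:134711463-134711492, plus strand: ccagaggtccCCTAAAGAGGaatacattct
The ACTA2 boxes begin 121 and 71 bases before that start, the CNN2 box 89 and the CALD1 box 26. These are matches of letters and not measured binding.

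The values are FPKM, fragment counts divided by transcript length and library size, so levels of different genes can be set side by side within a library. The values of a library summed to 4787984 to 6161818, and whether the authors scaled them further is not given, so they are read as relative levels. Between 17406 and 19333 rows lay above 0 in a library, with a median of 53.6 to 59.0 FPKM, and the 10 highest rows held 5.3% to 15.6% of all FPKM. Read depth is unknown. Abundant genes were listed at 0 in whole groups, among them PFN1, the actin monomer binder profilin, which had 5632 to 7748 FPKM in 4 libraries and 0 in the HCC4006 controls and the resistant HCC827 pair. A 0 is therefore reported as listed at 0, with no fold change. TMSB10, a thymosin beta gene, and the keratin gene KRT7 were at 0 in every library. Summed epithelial markers (9 found of 10) lay between 13093 and 20139 FPKM in 6 libraries and at 2596 and 2560.4 in resistant HCC4006. The sum was lowest there, although CLDN4, at 222 and 284 FPKM in resistant HCC4006, was listed at 0 elsewhere. Summed fibroblast markers reached at most 122 FPKM, with COL1A1 at 13.4 to 120 FPKM. The row of PDGFRB and AC005895.3 measured 2.57 and 0.76 FPKM with DMSO and 21.9 and 26.2 in resistant HCC4006. It was listed at 0 in HCC827. COL1A2 reached 1.29 FPKM in resistant HCC4006 and was listed at 0 elsewhere. DCN reached 1.51 and LUM 1.82 FPKM, both in DMSO libraries. COL3A1, FAP and THY1 were listed at 0 in every library. Of 7 smooth muscle and pericyte markers, MYH11, DES, LMOD1 and MYOCD were listed at 0 in every library. The sum over the 7 was 1.80 to 22.0 FPKM with DMSO and 70.0 to 161 in the resistant libraries. The row of the pericyte marker RGS5 and of RP11-267N12.3 made up most of the latter. It was listed at 0 in all DMSO libraries and lay at 64.0 to 157 FPKM in all resistant ones. CSPG4 reached 14.7 and ACTG2 9.06 FPKM. The immune marker CD68 lay between 264 and 1122 FPKM, and PTPRC and CD3E were listed at 0 in every library. The part of these markers in the results was not tested. In such bulk RNA, fewer cells that make a transcript and less RNA per cell cannot be told apart.

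The set fell into a highly and a weakly expressed part. TAGLN2, TPM1, CNN3, CNN2 and CALD1, the forms made by many cell types, lay between 252 and 3839 FPKM wherever they were above 0, and TAGLN2 alone stood at or above the 97.9th percentile of the rows above 0 in every library. ACTA2, TAGLN, MYL9 and CNN1, the smooth muscle markers, lay between 0.43 and 87.8 FPKM wherever they were above 0, and TPM2 lay between 16.4 and 203 FPKM. ACTA2 ranged from the 12.5th to the 54.7th percentile. The highest value of any of these 4 markers was thus below the lowest non-zero value of the 5 widely made forms.

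**Figure D1:**
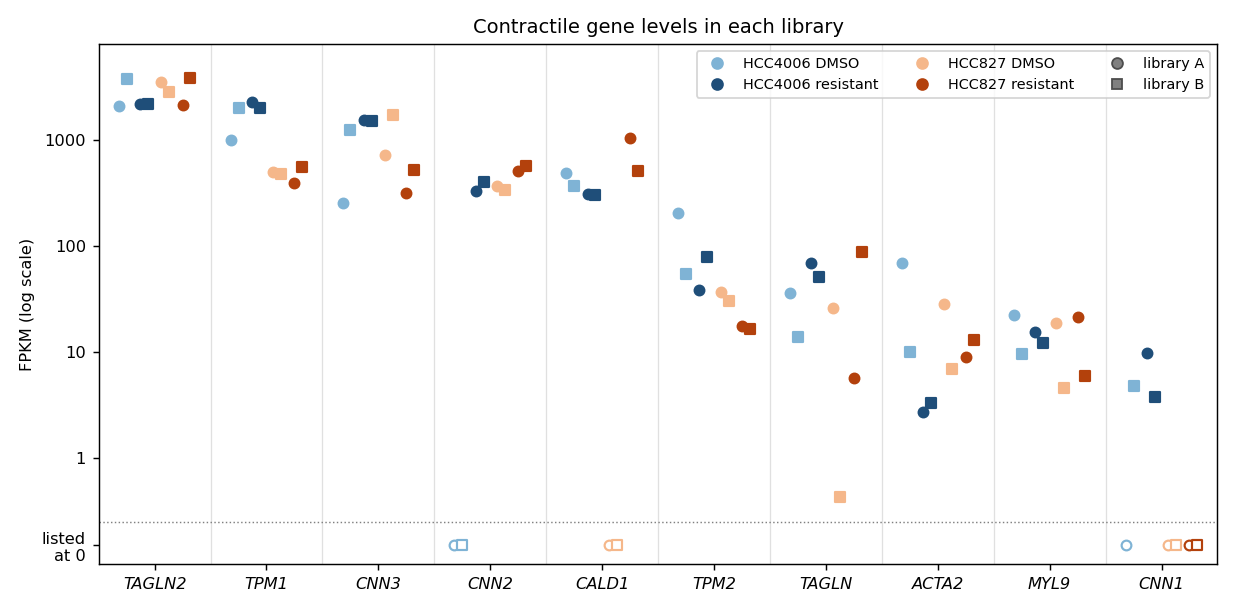
FPKM of each contractile gene on a log axis, by group (colour) and library (circle A, square B), with values listed at 0 as open symbols below the dotted line. The 5 genes on the left sit above 250 FPKM wherever they are above 0, and the smooth muscle markers on the right sit below 88 FPKM.

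In each line, 1 member passed the test between resistant and DMSO libraries, and both of these rested on a group listed at 0: CNN2 in HCC4006 and CALD1 in HCC827. The test was limma on log2(FPKM + 0.5), with Benjamini-Hochberg adjustment over all rows and a threshold of 0.05. It called 9.36% of the 19881 rows tested in HCC4006 and 6.8% of 19324 in HCC827, against 1 of 10 and 1 of 9 members. Rows called higher in the resistant libraries, as both members were, made up 6.37% and 5.13%. No member above 0 in all 4 libraries of a line was called (limma, 8 members in each line), with adjusted p from 0.213 to 0.922 in HCC4006 and from 0.234 to 0.939 in HCC827. Fitted on rows above 0 in every library alone, 0.137% of rows were called in HCC4006 and 0.0619% in HCC827. At an unadjusted p under 0.05 there were 1 of the 8 in HCC4006, ACTA2, and 2 of the 8 in HCC827, TPM2 and CNN3, beside 16.9% and 12.1% of all rows above 0. In the fit over rows above 0 in every library, the median log2 fold change of those 8 members was −0.23 in HCC4006 and −0.11 in HCC827, beside −0.036 and −0.094 for all rows.

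ACTA2 encodes smooth muscle alpha-actin. In HCC4006 it measured 68.6 and 10.03 FPKM with DMSO, against 2.72 and 3.31 in the resistant libraries. In HCC827 it measured 28.0 and 6.85 FPKM with DMSO and 8.88 and 13.0 in the resistant libraries. Both resistant HCC4006 libraries were thus below both controls, the highest of which stood 6.85-fold above the other, while the HCC827 groups overlapped. The log2 fold change in HCC4006 was −2.95 (SE 1.02, 95% interval −5.85 to −0.039, limma adjusted p = 0.213). Without HCC4006 DMSO library B it was −4.30, and without DMSO library A it was −1.59, each with a lone control library left. In HCC827 the log2 fold change was −0.36 (SE 0.76, 95% interval −2.36 to 1.63, limma adjusted p = 0.832). The row lies on a locus of the tables (hg19 chromosome 10, 90639490 to 90775542) that also holds FAS and STAMBPL1, and the actin genes are so alike in sequence that fragments may be split between them. In HCC4006 FAS measured 158 and 162 FPKM with DMSO and 113 and 85.5 in the resistant libraries. STAMBPL1 measured 18.2 and 56.5 FPKM with DMSO and 81.8 and 59.4 in the resistant libraries. FAS was thus near-equal in the HCC4006 DMSO libraries, whereas STAMBPL1 was lower in library A, where ACTA2 was higher. In HCC827 DMSO libraries A and B, where ACTA2 was again higher in A, STAMBPL1 measured 26.9 and 29.2 FPKM and FAS 94.4 and 104.

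MYL9 encodes the regulatory light chain of smooth muscle and non-muscle myosin. It measured 22.1 and 9.59 FPKM with DMSO and 15.3 and 12.0 in resistant HCC4006, and 18.8 and 4.57 against 21.1 and 5.90 in HCC827. The groups overlapped in both lines. Its log2 fold changes were −0.10 (SE 0.50, 95% interval −1.51 to 1.31) and 0.25 (SE 0.94, 95% interval −2.23 to 2.72), with limma adjusted p of 0.922 and 0.917, and the sign turned in HCC827 under quantile normalization (−0.23). Its locus (hg19 chromosome 20, 34894257 to 35201678) is shared with DLGAP4 and RP5-977B1.7. In libraries A and B, RP5-977B1.7 measured 22.0 and 23.3 FPKM with DMSO and 24.0 and 16.2 in resistant HCC4006. In HCC827 it measured 21.7 and 12.4 with DMSO and 24.4 and 10.7 in the resistant libraries. MYL9 stayed between the 15.6th and the 35.6th percentile of rows above 0, whereas the non-muscle light chains MYL12A and MYL12B, which do the same work in most cells, lay between 778 and 1979 FPKM.

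TAGLN encodes transgelin, also called SM22, an actin bundling protein and early smooth muscle marker. In HCC4006 it measured 35.8 and 13.8 FPKM with DMSO and 69.3 and 50.5 in the resistant libraries, both above both controls. The log2 fold change was 1.39 (SE 0.55, 95% interval −0.19 to 2.97, limma adjusted p = 0.262). In HCC827 it measured 26.0 and 0.43 FPKM with DMSO and 5.64 and 87.8 in the resistant libraries. Libraries of 1 group there differed by 61.0-fold with DMSO and by 15.6-fold among the resistant, the groups overlapped, and the log2 fold change of 2.23 had an SE of 2.08 (95% interval −3.26 to 7.73, limma adjusted p = 0.604). Without HCC827 DMSO library B it was −0.19. TAGLN shares its locus (hg19 chromosome 11, 117070036 to 117103241) with PCSK7, at 253 and 216 FPKM with DMSO and 90.3 and 47.4 in resistant HCC827, and fragments of overlapping genes cannot be told apart without strand.

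TAGLN2, the transgelin of epithelial and blood cells (hg19 chromosome 1, 159887896 to 159895522), was the most abundant member by mean FPKM in all 4 groups. It measured 2098 and 3701 FPKM with DMSO and 2158 and 2167 in resistant HCC4006, and 3507 and 2839.9 against 2118 and 3839 in HCC827. Both pairs of groups overlapped. Its log2 fold changes were −0.37 (SE 0.34, 95% interval −1.35 to 0.61) and −0.15 (SE 0.41, 95% interval −1.24 to 0.94), with limma adjusted p of 0.572 and 0.885. TAGLN made up between 0.015% and 3.11% of the FPKM of both transgelins, so the summed level followed TAGLN2 in every library.

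The calponins hold actin filaments together; CNN1 is the smooth muscle form, CNN2 and CNN3 are made more widely. CNN1 (hg19 chromosome 19, 11649578 to 11661138) was listed at 0 in all 4 HCC827 libraries and so was not tested there. In HCC4006 it measured 0 and 4.80 FPKM with DMSO and 9.82 and 3.78 in the resistant libraries, an overlap of the groups (limma adjusted p = 0.473). It never made up more than 0.524% of calponin FPKM.

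CNN2 was listed at 0 in both HCC4006 controls, against 326 and 396 FPKM in the resistant pair (limma adjusted p = 0.000483). In HCC827 it measured 365 and 339 FPKM with DMSO and 510 and 567 in the resistant libraries, which did not overlap but did not pass (log2 fold change 0.61, SE 0.27, 95% interval −0.10 to 1.32, limma adjusted p = 0.335). The CNN2 locus (hg19 chromosome 19, 781002 to 1174282) carries 21 other rows, and all 21 were at 0 in both HCC4006 DMSO libraries. Of these, 15 lay above 0 somewhere in the series; of these 15, both libraries gave 0 for 1 row in resistant HCC4006, for 1 in the HCC827 controls and for 2 in resistant HCC827. GPX4, which encodes a glutathione peroxidase that all cells use, was among them, at 0 with DMSO and at 1253 and 1179.9 FPKM in resistant HCC4006. The 0 of CNN2 in HCC4006 DMSO was therefore shared by the whole locus, and over rows above 0 alone CNN2 could not be tested in HCC4006.

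**Figure D2:**
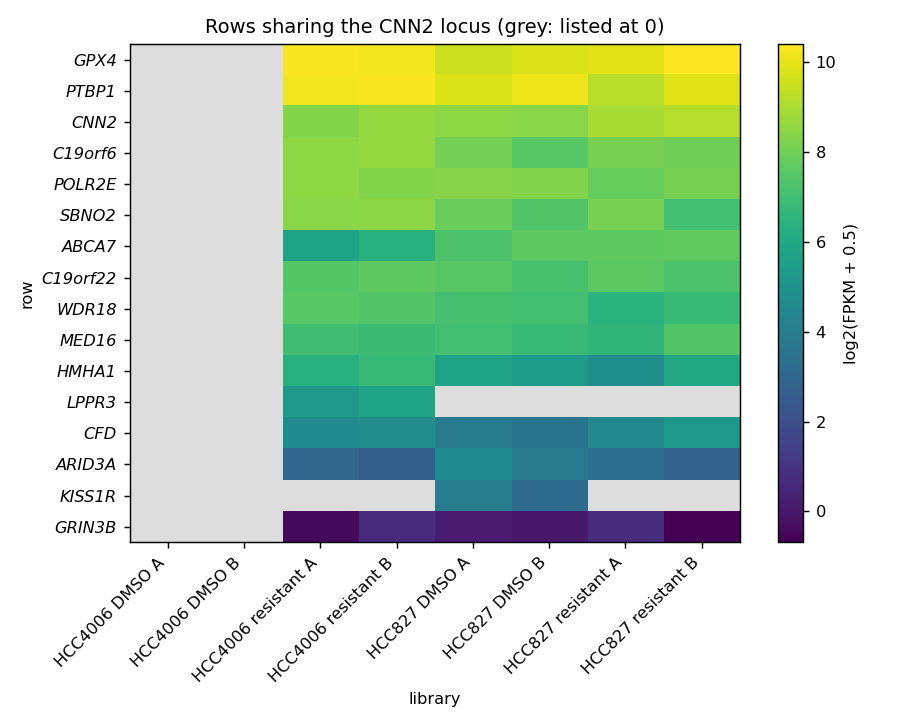
Level of CNN2 and of the 15 other rows on its locus that lie above 0 in some library, as log2(FPKM + 0.5) by colour, with 1 column per library. The 2 HCC4006 DMSO columns are grey, listed at 0, in every row, and the other 6 columns are filled in 13 or more of the 15 other rows.

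CNN3 (hg19 chromosome 1, 95362506 to 95392834) went opposite ways in the lines without passing the test. In HCC4006 it measured 252 and 1226 FPKM with DMSO and 1538 and 1503 in the resistant libraries, and in HCC827 720 and 1722 against 312 and 519. The resistant libraries were above both controls in HCC4006 and below both in HCC827. The log2 fold changes were 1.45 (SE 0.85, 95% interval −0.96 to 3.86, limma adjusted p = 0.417) and −1.47 (SE 0.55, 95% interval −2.92 to −0.016, limma adjusted p = 0.269). Their difference, HCC827 minus HCC4006, was −2.92 (SE 1.12, 95% interval −5.66 to −0.18, limma adjusted p = 0.174). Without HCC4006 DMSO library B, the higher of that group, the HCC4006 change was 2.59 and the difference −4.06. Without library A the HCC4006 change was 0.31. Each of these fits left a lone control library in HCC4006. CNN3 made up 66.3% and 83.6% of calponin FPKM in HCC827 with DMSO, against 38.0% and 47.8% among resistant libraries, where CNN2 was the larger part.

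Tropomyosins lie in the groove of the actin filament. TPM1 (hg19 chromosome 15, 63334830 to 63364111) measured 1000.5 and 1994 FPKM with DMSO and 2266 and 2007 in resistant HCC4006, and 495 and 478 against 387 and 559 in HCC827. The resistant HCC4006 libraries were just above the higher control, and the HCC827 groups overlapped. The log2 fold changes were 0.59 (SE 0.41, 95% interval −0.56 to 1.75, limma adjusted p = 0.479) and −0.064 (SE 0.31, 95% interval −0.90 to 0.77, limma adjusted p = 0.939), the second of which was 0.010 with median-ratio scaling. TPM2 (hg19 chromosome 9, 35681988 to 35691017), the form of skeletal and smooth muscle, measured 203 and 54.0 FPKM with DMSO and 38.4 and 78.2 in resistant HCC4006, an overlap. In HCC827 it measured 36.6 and 30.0 FPKM with DMSO and 17.4 and 16.4 in the resistant libraries, both below both controls. Its log2 fold changes were −0.93 (SE 0.81, 95% interval −3.22 to 1.36, limma adjusted p = 0.541) and −0.95 (SE 0.33, 95% interval −1.82 to −0.090, limma adjusted p = 0.234). Beside TPM3 and TPM4, the other tropomyosin genes, TPM2 made up 0.657% to 5.32% of tropomyosin FPKM and TPM1 14.3% to 38.8%. Without HCC4006 DMSO library A the TPM2 change in HCC4006 was 0.021.

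**Figure D3:**
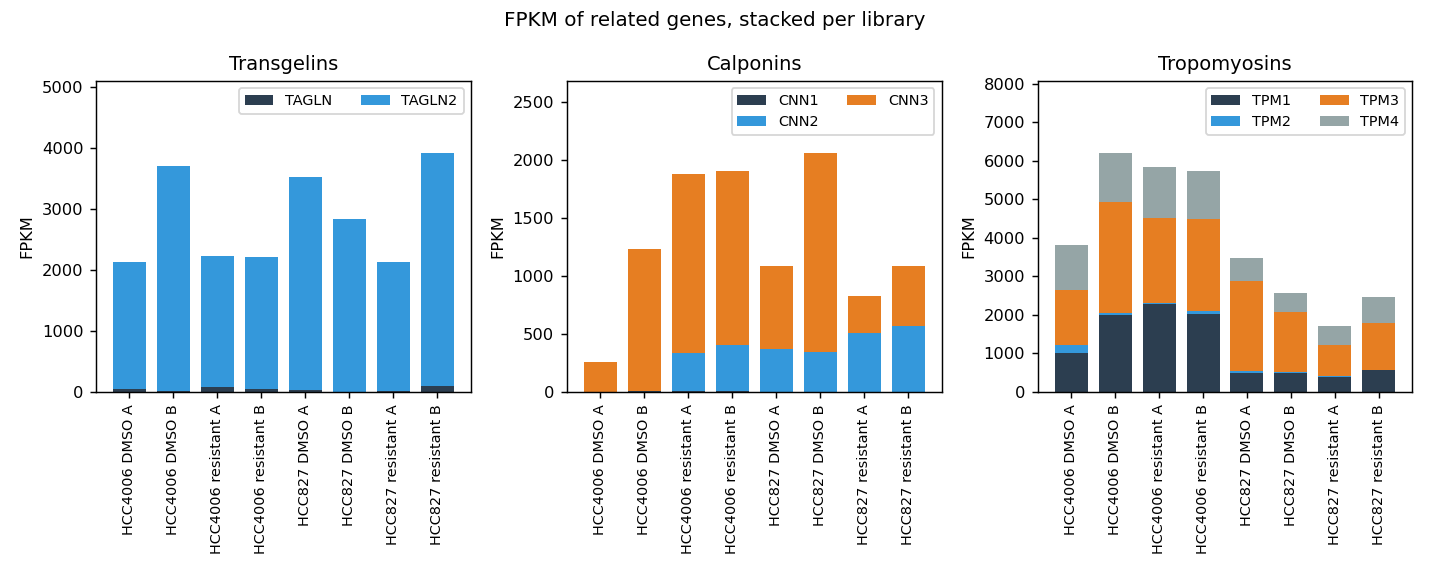
FPKM of the transgelin, calponin and tropomyosin genes stacked for each library (bars from 0; FPKM is per length, so the parts can be compared). TAGLN2 fills 96.9% or more of every transgelin bar, CNN1 is hardly visible, and CNN2 takes the larger part of calponin in both resistant HCC827 libraries.

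CALD1 encodes caldesmon, which binds actin, myosin and tropomyosin and restrains contraction. It measured 487 and 367 FPKM with DMSO and 308 and 301 in resistant HCC4006, both resistant libraries below both controls (log2 fold change −0.47, SE 0.23, 95% interval −1.13 to 0.18, limma adjusted p = 0.341). In HCC827 it was listed at 0 in both controls, against 1044 and 509 FPKM in the resistant pair (limma adjusted p = 0.000544). The call was lost without HCC827 DMSO library A (0.0751) or B (0.0647), fits in which no row of the whole table was called by limma, while 2768 and 2574 rows had an unadjusted p under 0.05. The only other row on its locus (hg19 chromosome 7, 134429002 to 134655470), AC019014.1, was at 0 in all 8 libraries, so no neighbour shows whether the locus was counted in HCC827 DMSO. Whether CALD1 RNA was missing there or only its estimate was not tested.

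The interaction of line and resistance (HCC827 less HCC4006) was called for CNN2 and CALD1, 2 of 10 members, beside 12.1% of 20685 rows (limma adjusted p = 1.85e-05 and 4.94e-05). Each holds a group listed at 0. None of the 7 members above 0 in all 8 libraries was called by limma (lowest adjusted p = 0.174, that of CNN3), and 1 of them, CNN3, had an unadjusted p under 0.05; over rows above 0 alone 1.13% were called. For ACTA2 the difference was 2.58 (SE 1.42, 95% interval −0.89 to 6.05), for TAGLN 0.84 (SE 2.59, 95% interval −5.47 to 7.16) and for TPM1 −0.66 (SE 0.53, 95% interval −1.94 to 0.62). These intervals are wide enough to hold differences of several fold in either direction for TAGLN, so similar responses were not shown either. For CNN1 the difference did not pass (limma adjusted p = 0.472), with HCC827 at 0 throughout and HCC4006 DMSO library A also listed at 0.

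**Figure D4:**
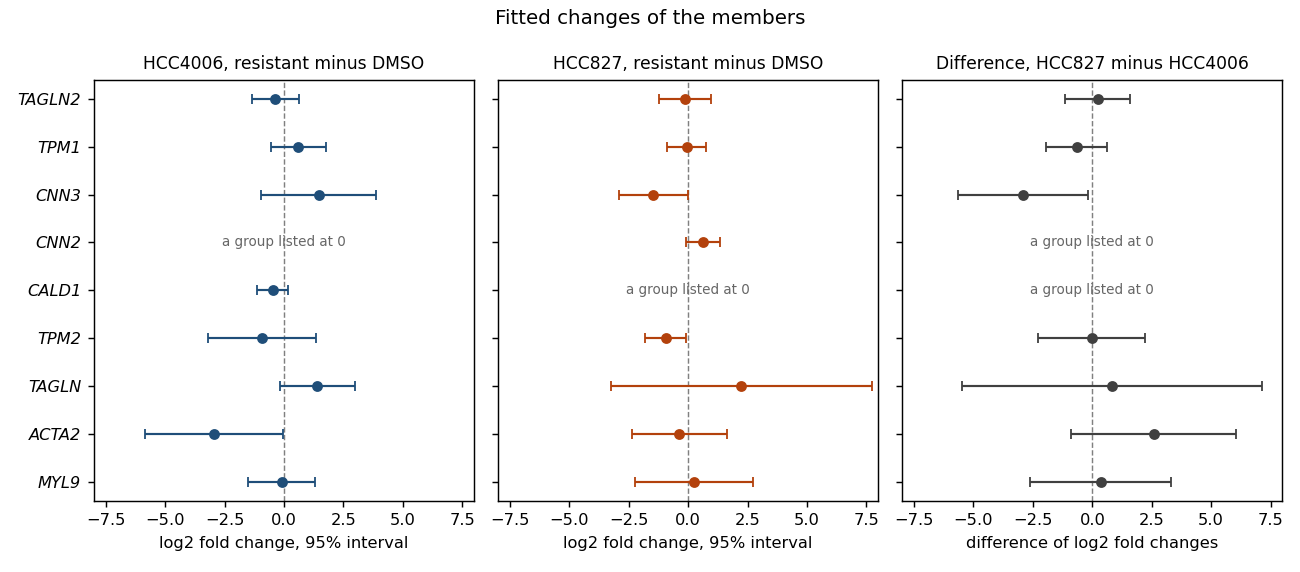
Log2 fold changes, resistant minus DMSO, with 95% intervals in HCC4006 (left) and HCC827 (middle) and their difference (right), 2 libraries per group; CNN1 is left out and a comparison with a group listed at 0 has no point. The intervals of ACTA2 in HCC4006 and of TPM2 and CNN3 in HCC827 have upper ends just below 0, with limma adjusted p above 0.2 for each. So does that of the CNN3 difference, with limma adjusted p = 0.174.

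Counted by overlap of libraries alone, 6 of 10 members did not overlap in HCC4006, 4 higher in the resistant libraries (TAGLN, TPM1, CNN2, CNN3) and 2 lower (ACTA2, CALD1), where 53.1% of all rows tested did not overlap (26.6% higher, 26.5% lower). In HCC827 these were 4 of the 9 tested, 2 higher (CNN2, CALD1) and 2 lower (TPM2, CNN3), beside 48.9% of rows (24.3% higher, 24.7% lower). CNN2 alone was above both controls in each line, but its HCC4006 controls were listed at 0. No member was below both controls in each line. The share of all rows that kept a direction in both lines was not taken, so this is description only.

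The median spread between libraries of a group was above that of all rows for these genes, least so in resistant HCC4006. In HCC4006 DMSO the median absolute difference between libraries A and B was 1.26 on the log2 scale for the 8 members above 0, beside 0.57 for all rows, and 5 of the 8 differed by more than 2-fold, as did 26.7% of rows. In resistant HCC4006 the median was 0.26 for 10 members, beside 0.23. In HCC827 it was 0.78 with DMSO (8 members, beside 0.38) and 0.73 in the resistant libraries (9 members, beside 0.55). In both lines, DMSO library A held more ACTA2, TAGLN, MYL9 and TPM2 than library B and less CNN3, a pattern chosen after the values were seen. For ACTA2 the log2 difference A minus B was 2.72 in HCC4006 and 1.96 in HCC827, and for CNN3 −2.28 and −1.26. Summed fibroblast markers in DMSO libraries A and B were 122 and 71.7 FPKM in HCC4006 and 44.1 and 50.9 in HCC827, and summed smooth muscle and pericyte markers 13.2 and 22.0, and 3.38 and 1.80. Their part in the spread was not tested.

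**Figure D5:**
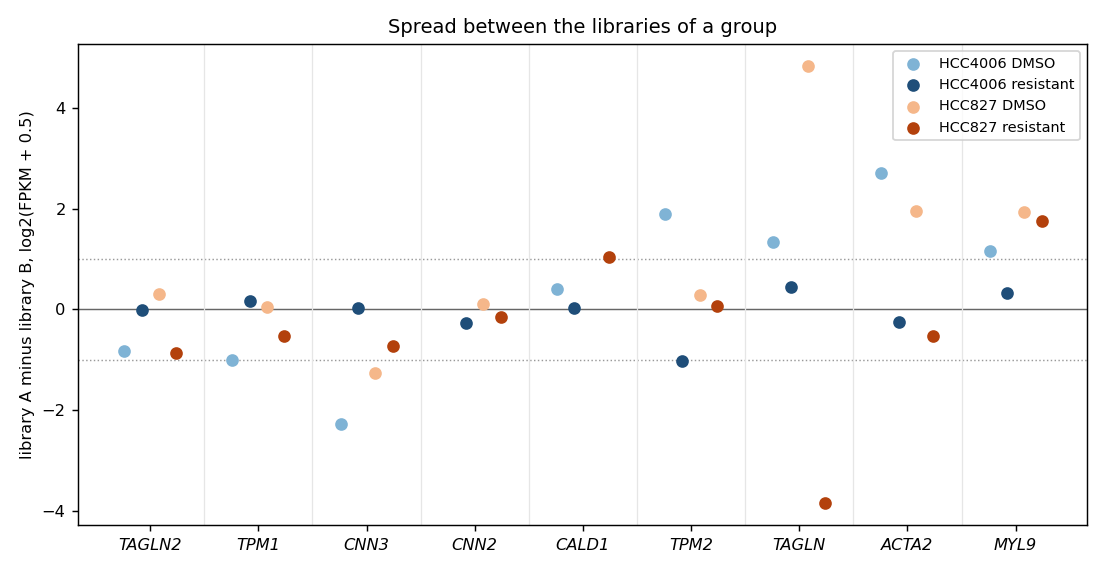
Difference between libraries A and B of a group on the log2(FPKM + 0.5) scale for members above 0 in both, by group; dotted lines mark 2-fold. ACTA2, TAGLN and MYL9 lie above the upper line in both DMSO groups, and TAGLN in HCC827 spans 4.84 with DMSO and −3.85 in the resistant group.

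Ordered by mean level, TAGLN2 came first in every group. In HCC4006 DMSO, TPM1, CNN3 and CALD1 followed; TPM1 and CNN3 overlapped, as did CNN3 and CALD1. In resistant HCC4006, TAGLN2 and TPM1 overlapped, and CNN3, CNN2 and CALD1 followed without overlap between neighbours. ACTA2 was last there, below CNN1 at 3.78 to 9.82 FPKM, whereas it was sixth in the HCC4006 DMSO group. In HCC827 DMSO the order below TAGLN2 was CNN3, TPM1, CNN2 and TPM2 with no overlap between neighbours. Resistant HCC827 had CALD1, CNN2, TPM1 and CNN3 in places 2 to 5, each overlapping the next. Levels in HCC4006 and HCC827 come from tables that may have been scaled separately, so their order was taken within each group.

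The wider contractile pathway was read from 5 lists with 80 genes in all. Of 53 list genes tested and above 0 in all 4 HCC4006 libraries, limma called none, with 11 at an unadjusted p under 0.05, and of 54 in HCC827 also none, with 6. Of all rows so tested, 16.9% in HCC4006 and 12.1% in HCC827 had an unadjusted p under 0.05. The calls made, 3 of 62 list genes tested in HCC4006 and 3 of 60 in HCC827, all had a group listed at 0. Over all rows tested, 9.36% and 6.8% were called. Fits that leave out a library keep a lone library in that group, so their calls for single lists are not given. Smooth muscle lineage genes (15) had 0 calls in HCC4006, with 8 tested, and 1 in HCC827, with 7 tested. The call was PDLIM7, an actin-associated adaptor gene, at 0 with DMSO and at 369 and 423 FPKM in the resistant libraries. ACTG2, the other smooth muscle actin gene, lay between 1.80 and 9.06 FPKM in all 8 libraries.

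Non-muscle actin, myosin and crosslinker genes (22, of which 21 were tested in each line) had 1 higher and 1 lower call in HCC4006 and 1 lower in HCC827. PFN1 was the higher call in HCC4006 and the lower one in HCC827. The lower call in HCC4006 was MYH10, the heavy chain gene of non-muscle myosin IIB, at 63.1 and 65.7 FPKM with DMSO and at 0 in the resistant libraries. In HCC827 MYH10 measured 304 and 279 FPKM with DMSO and 116 and 86.1 in the resistant libraries (log2 fold change −1.54, SE 0.30, limma adjusted p = 0.0658). Over genes above 0 in all 4 libraries, the list's median log2 fold changes were 0.081 in HCC4006 and 0.079 in HCC827, beside −0.038 and −0.096 for all such rows. Of the 21 tested list genes, 11 had a positive and 10 a negative log2 fold change in HCC4006, and 12 and 9 in HCC827. The genes named next were picked after their values were seen. MYH9, the main non-muscle myosin heavy chain gene, has 2 rows, and the one with the higher mean was used. It measured 2779.7 and 3305 FPKM against 5466 and 7905 in HCC4006 (log2 fold change 1.12, limma adjusted p = 0.117). In HCC827 it measured 1671 and 1938 against 2581 and 1279.8 (log2 fold change 0.015, limma adjusted p = 0.992). MYLK, the kinase of the myosin light chain, is from the smooth muscle lineage list. It measured 140.5 and 389 FPKM against 884 and 975 in HCC4006 (log2 fold change 1.99, limma adjusted p = 0.153). In HCC827 it measured 125 and 182 against 107 and 53.0 (−0.998, limma adjusted p = 0.358). The light chain genes MYL6, MYL12A and MYL12B had log2 fold changes of −0.63, −0.36 and −0.34 in HCC4006. In HCC827 these were 0.43, 0.72 and 0.13.

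SRF and its co-factors did not pass the test in either line. SRF measured 98.7 and 76.4 FPKM with DMSO and 69.8 and 81.7 in resistant HCC4006 (log2 fold change −0.20, limma adjusted p = 0.667), and 96.9 and 87.2 against 114 and 82.0 in HCC827 (0.073, 0.932). MKL1 had log2 fold changes of 0.65 (limma adjusted p = 0.261) and −0.54 (0.591), and MKL2 of 0.068 (0.886) and −0.041 (0.978). MYOCD, the co-factor specific to heart and smooth muscle, was at 0 in every library.

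SRF and co-factor targets outside the members (18) and TGF-beta genes (16) had 0 calls by limma in either line, with unadjusted counts among those given above. Other settings made a few in HCC4006. Quantile normalization called 2 SRF targets and 1 TGF-beta gene higher, where it called 1196 of 19881 rows higher. A fit over all 8 libraries called 1 SRF target and 1 TGF-beta gene higher and 1 SRF target lower. That fit called 1390 of 20685 rows higher and 777 lower. Over the SRF targets and the TGF-beta genes above 0 in all 4 libraries, the median log2 fold changes were 0.41 and 0.50 in HCC4006. In HCC827 they were 0.044 and 0.0011, beside −0.038 in HCC4006 and −0.096 in HCC827 for all such rows. Muscle troponin, tropomyosin and sarcomere genes (18, of which 9 were tested in each line) had 1 call in each: the row of LAD1 and TNNT2 in HCC4006, at 0 with DMSO and at 18.5 and 13.3 FPKM in the resistant libraries, and ACTA1, the skeletal muscle actin gene, in HCC827, at 0 with DMSO and at 73.5 and 120 FPKM in the resistant ones. In HCC4006, ACTA1 lay between 74.8 and 112 FPKM in all 4 libraries, above ACTA2 in each.

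Likeness was measured as Pearson's r over the 8 libraries on the log2 scale, centred within each line, among 12819 rows above 0 in every library and with a mean of at least 10 FPKM. The rows most like ACTA2 were PRKCH, AC091196.1, XXbac-B444P24.10, the row of HNRNPA1L2 and CDC34, with r from 0.980 to 0.995. Those most like TAGLN were WDR91, SERPINH1, AC146507.1, TIRAP and SDF2, with r from 0.935 to 0.973. ACTA2 and TAGLN themselves had an r of 0.131; ACTA2 had 0.778 with TPM2, −0.759 with TPM1 and −0.733 with CNN3. These are descriptions over 8 points that share libraries, and the rows most like each gene were picked as the highest of many. ACTA2 and MYL9 had an r of 0.407.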

How the data were processed

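Polyadenylated RNA of 8 libraries was analysed. Per the submitters' processing notes, the authors used TopHat 1.4.1, Cufflinks 1.3.0 and Cuffdiff on hg19, and they deposited gene-level FPKM in 2 tables; the annotation is not given in the sources used here. Column letters A and B were not tied to the labels' replicate numbers, and 0 per-sample columns were left out. Values were tested as log2(FPKM + 0.5) with limma 3.58.1 (R 4.3.3; lmFit and eBayes, trend on) for rows averaging 0.5 FPKM or more, each line alone with 4 libraries and the difference between lines as an interaction over all 8, two-sided, adjusted by Benjamini-Hochberg over all rows. The fit was tested on simulated data. Depth is unknown, so no counting interval is given, and fold changes of low genes are understated. List genes were taken from a row on their own chromosome. Named genes were all members, SRF, MKL1, MKL2, list genes that were called (those above 0 first, then up to 2 per list with a group at 0) and the 5 rows most like ACTA2 and TAGLN; MYL12A, MYL12B, ACTG2, locus neighbours and genes described as picked later were chosen after their values were seen and fall outside that rule. The members and lists were chosen with earlier results of these data known. A further gene list is not reported here.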

Additional observations from a re-analysis of the deposited data

Results flagged for a closer look

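CNN2 and CALD1 were singled out because their changes differed between HCC4006 and HCC827 by the interaction test of limma, with adjusted p of 1.85e-05 and 4.94e-05. Both tests rest on values listed at 0, CNN2 in both HCC4006 DMSO libraries and CALD1 in both HCC827 DMSO libraries.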

How the results depend on the processing

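Each group had 2 libraries, and the spread between them limits every value. Over rows above 0 in every library, 23 rows and 0 members were called in HCC4006, 10 and 0 in HCC827, and 168 and 0 for the difference between the lines (limma; 2729, 2005 and 2784 rows and 1 member each at an unadjusted p under 0.05). Leaving out each library in turn gave 1394 to 3565 rows and 1 to 3 members in HCC4006, 0 to 1520.0 rows and 0 to 1 member in HCC827, and 1666 to 3857 rows and 2 to 4 members for the difference; the lone library of a group was then assumed to vary like the other groups. The highest counts in HCC4006 and for the difference came without HCC4006 DMSO library B, the lowest for the difference without resistant HCC4006 library B, and the counts of 0 without either HCC827 DMSO library. With the replicate block by column letter 1400.0 rows were called in HCC4006, 1485 in HCC827 and 1687 for the difference, with 1, 1 and 2 members. The block also called 1 SRF target lower in HCC4006. The differences A minus B of the 2 groups of a line had a correlation of −0.077 in HCC4006 and 0.205 in HCC827 across rows, and the letters were not taken as pairing. Quantile normalization moved the median log2 fold change of all rows from −0.0072 to −0.19 in HCC4006 and from −0.044 to −0.24 in HCC827. It turned the sign of MYL9 in HCC827 (−0.23) and of the TAGLN2 difference (−0.029), and median-ratio scaling that of TPM1 in HCC827 (0.010). Of 401 member values under the alternatives, 25 turned sign, all of them of members that were not called. Those turned by leaving out a library ranged, in HCC4006, from −0.69 to 0.48 for MYL9, from −1.88 to 0.021 for TPM2 and from −0.77 to 0.044 for TAGLN2. In HCC827 they ranged from −1.34 to 0.61 for ACTA2, from −0.57 to 0.28 for TAGLN2, from −0.19 to 4.65 for TAGLN, from −0.72 to 1.21 for MYL9 and from −0.33 to 0.20 for TPM1. For the difference they ranged from −0.62 to 1.32 for MYL9, from −0.21 to 0.65 for TAGLN2, from −0.97 to 0.92 for TPM2 and from −1.58 to 3.26 for TAGLN. The cause was not tested. Of 260 list counts, 40 moved by over 1.5 times, 20 of them without a library. No member had another row to try.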
